A study of Homo sapiens with 5 samples.

Results

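The comparison described here set A549 cells transfected with an oligo named 23N randomer against A549 cells transfected with a control oligo, both read 16 h after transfection. A549 is a human lung carcinoma line of epithelial origin. The genes described were those with a mean of 50 or more raw counts over the 2 libraries. These were 6526 of 23340 genes in the exon table and 6385 of 22009 genes in the intron table. In all, 4332 genes passed in both tables.

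The series holds 5 libraries of total RNA depleted of ribosomal RNA, 1 for each group. Control oligo and randomer were each given at 50 nM with Lipofectamine for 9 h or 16 h, and the mock library is Lipofectamine without an oligo for 16 h. The labels do not give the oligos' chemistry. Every comparison is therefore 1 library against 1 library, so no difference below has a replicate check or a test, and intervals are exact Clopper-Pearson 95% intervals that cover counting error only. Reads copied in PCR do not count as separate molecules, and the intervals leave that out.

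Exon counts came to 2596995 with control oligo and 1476223 with randomer at 16 h, and ranged from 1792192 to 2629053 in the other 3 libraries. Of the markers of A549 cells and lung epithelium, KRT8, KRT18, ALDH1A1 and AKR1B10 were well read, with 815 to 6406 exon counts under control oligo. NKX2-1 and SFTPB had 0 exon counts in all 5 libraries, and KRT19 and EPCAM had 0 in mock and in both control oligo libraries. Summed exon counts of the other marker lists in control oligo and randomer at 16 h were 18 and 140 for leukocytes, 0 and 81 for endothelium, 1157 and 282 for fibroblasts, and 173 and 34 for neurons. In mock these sums were 6, 0, 1176 and 108. The erythroid markers were at 0 in all 3, and PTPRC, CD3E, LYZ and KDR had 0 exon counts in every library.

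The series' title concerns the interferon system and double-stranded RNA from inverted repeats, both intronic ones and those outside genes. Enzymes of the OAS family bind double-stranded RNA and make short oligoadenylates, which act as second messengers of the antiviral response. Introns are removed from most transcripts within the nucleus and are quickly degraded, so that intron reads in total RNA come largely from unspliced transcripts and from introns not yet broken down. Small nucleolar RNAs (snoRNAs) are cut out of introns and guide chemical modification of ribosomal RNA, as H/ACA snoRNAs for pseudouridine and as C/D box snoRNAs for methylation.

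Small RNAs were among the genes with the largest exon ratios, and sequences of those the results turn on are shown first. SNORA62, SNORA67, SNORD22 and SNORD93 are snoRNAs that were far more abundant with randomer, SNORA57 and SNORD17 are snoRNAs that were abundant with both oligos, and RNU11 is the U11 small nuclear RNA of the minor spliceosome. Capitals mark the ACA box of H/ACA snoRNAs 3 bases before the 3′ end, box D (CTGA) within the last 12 bases of C/D box snoRNAs, and the letters ATTTTTTGG, which hold the Sm protein site, in RNU11. The sequences are DNA letters of GENCODE version 29 transcripts, 5′ to 3′.
SNORA62: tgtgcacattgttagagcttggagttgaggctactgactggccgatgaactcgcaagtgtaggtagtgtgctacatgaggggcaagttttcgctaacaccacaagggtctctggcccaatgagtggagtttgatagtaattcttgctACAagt
SNORA67: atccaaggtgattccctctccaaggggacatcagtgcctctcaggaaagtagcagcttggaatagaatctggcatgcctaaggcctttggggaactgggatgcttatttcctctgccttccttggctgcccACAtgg
SNORA57: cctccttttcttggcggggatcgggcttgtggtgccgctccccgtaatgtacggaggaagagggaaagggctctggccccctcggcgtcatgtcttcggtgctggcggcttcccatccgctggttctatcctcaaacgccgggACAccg
SNORD22: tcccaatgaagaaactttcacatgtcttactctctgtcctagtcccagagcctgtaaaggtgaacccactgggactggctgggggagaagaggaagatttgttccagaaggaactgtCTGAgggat
SNORD93: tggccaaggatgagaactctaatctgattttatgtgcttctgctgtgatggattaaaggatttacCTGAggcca
SNORD17: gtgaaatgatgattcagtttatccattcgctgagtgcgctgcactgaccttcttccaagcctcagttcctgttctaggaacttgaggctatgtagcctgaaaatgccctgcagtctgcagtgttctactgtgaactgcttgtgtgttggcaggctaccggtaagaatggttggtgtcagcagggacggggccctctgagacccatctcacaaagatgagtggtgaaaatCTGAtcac
RNU11: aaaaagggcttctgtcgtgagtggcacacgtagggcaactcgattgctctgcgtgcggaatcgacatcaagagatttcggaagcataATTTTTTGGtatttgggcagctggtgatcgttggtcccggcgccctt
The ACA box at that place is in 107 of 142 H/ACA snoRNA transcripts of the annotation (75.4%), and CTGA within the last 12 bases is in 241 of 275 C/D box snoRNA transcripts (87.6%). The U11 letters are in 6 of 1819 small nuclear RNA transcripts (0.33%), searched on the transcript strand only. The boxes thus mark the class of each RNA and are shared by the snoRNAs with large and with small ratios. SNORA62 lies on chromosome 3 within RPSA, SNORA67 on chromosome 17, SNORA57 and SNORD22 on chromosome 11 with SNORD22 inside SNHG1, SNORD93 on chromosome 7, SNORD17 on chromosome 20 and RNU11 on chromosome 1.

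Intron reads took up most of the randomer library. Introns held 22.9% of all assigned counts with control oligo at 16 h (95% interval 22.9% to 23.0%) and 56.9% with randomer (56.8% to 56.9%). The mock library stood at 23.6%, and the 9 h libraries at 22.0% with control oligo and 49.7% with randomer. Both randomer libraries were thus far above the 3 libraries without randomer. Intron counts were 773339 and 1947593 with control oligo and randomer at 16 h, so the randomer library held more intron counts from fewer exon counts. Reads reached the introns of 15395 genes with randomer against 11026 with control oligo, and the exons of 13740 against 11815.

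To compare single genes, both tables were scaled by the exon libraries, which multiplies randomer counts by 1.87. The median log2 ratio of randomer to control oligo was then -0.11 over exons, with quartiles of -0.62 and 0.49, and 2.19 over introns, with quartiles of 1.24 and 3.29. A ratio of 2-fold or more is used below as a description of size. By exon counts 787 of 6526 genes (12.1%) were 2-fold or more higher and 736 (11.3%) 2-fold or more lower. By intron counts 5126 of 6385 genes (80.3%) were higher and 55 (0.861%) lower. The intron gain was thus spread over most genes, while exon ratios lay on both sides of 0. Intron directions rest on this scaling: with the intron table's own TMM factors the intron median was 0.33, and 2126 genes were higher and 1087 lower. For the same exon genes the ratio of control oligo to mock, which shares the control oligo library, had quartiles of -0.30 and 0.41, with 479 genes 2-fold or more higher and 168 lower.

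The choice of genes bears on these counts. Of the 6385 genes of the intron table, 2078 had under 50 counts with control oligo and 308 had none, so they passed only through the randomer library and had to be higher. Chosen instead by 50 or more counts in mock, 3744 genes had a median intron log2 ratio of 1.75, and 2695 were 2-fold or more higher and 66 lower. Chosen by the 9 h pair, which shares no library with the 16 h pair, 5937 genes had a median of 2.11. That 9 h choice also holds a randomer library, through which alone a gene could pass. The intron gain was thus present in each of these choices, and its size was smaller in genes already read in mock.

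Within single genes, introns gained on exons. Over the 4332 genes described in both tables the median of the intron log2 ratio minus the exon log2 ratio was 1.95, with quartiles of 1.15 and 2.78. This ratio was 2-fold or more higher in 3421 genes (79%) and 2-fold or more lower in 27 (0.623%). It does not depend on the library size by which both tables are scaled. In 2629 genes the introns were 2-fold or more higher while the exons stayed within 2-fold, and in 541 genes both were higher. In 208 genes exons were 2-fold or more lower and introns 2-fold or more higher, and the reverse was seen in 0 genes.

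**Figure D1:**
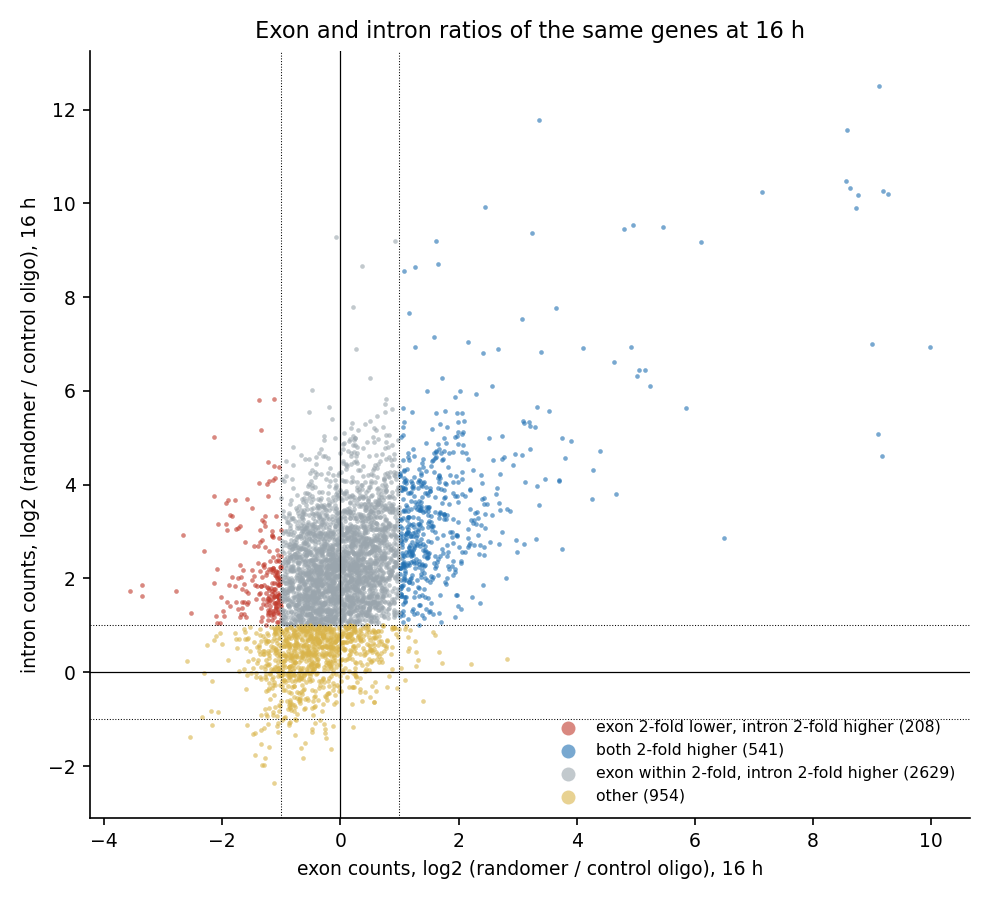
Each point is 1 of the 4332 genes described in both tables, with the log2 ratio of randomer to control oligo at 16 h over exons (x axis) and over introns (y axis), coloured by class with the number of genes in the key. Dotted lines mark 2-fold, and most points lie above the upper dotted line while their exon ratios lie on both sides of 0.

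Intron and exon ratios were related across genes, with a Spearman correlation of 0.44 over these 4332 genes, which share both libraries and are not independent. Among the 560 genes with exons 2-fold or more higher the median intron log2 ratio was 3.24, and among the 380 with exons 2-fold or more lower it was 1.24. Introns were therefore higher on the median even where exons were lower.

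The opposite movement is seen in BAG3, a co-chaperone of HSP70 family proteins. It had 312 exon counts with control oligo and 39 with randomer at 16 h, 249 and 163 at 9 h, and 172 in mock. Its introns had 73 and 181 counts at 16 h, 130 and 134 at 9 h, and 101 in mock. At 16 h the exon counts were 4.24-fold lower and the intron counts 4.61-fold higher, on the scaled counts. TIMP2, an inhibitor of matrix metalloproteinases, went from 317 to 38 exon counts (4.42-fold lower) and from 58 to 426 intron counts (13.6-fold higher). SH3GL1, an endophilin of endocytosis, was 6.34-fold lower over exons and 7.63-fold higher over introns. The other 5 genes that the naming rule took from this class, HDGFRP3, ITGBL1, MBP, GSK3A and C1D, had exon counts 3.82-fold to 4.95-fold lower and intron counts 5.96-fold to 32.5-fold higher.

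The largest single contributions to the intron gain came from long, expressed genes. TRIO, a guanine nucleotide exchange factor with 371 kb of introns, had 836 intron counts with control oligo and 6549 with randomer at 16 h, 572 and 5361 at 9 h, and 600 in mock. CHD2, a chromatin remodeller, had 429 and 5839 at 16 h, 396 and 3910 at 9 h, and 346 in mock. Both randomer libraries were above all 3 others for both genes, by 14.6-fold and 25.4-fold at 16 h. The same held for PARD3, a cell polarity gene, at 649 and 4723 counts (13.6-fold), for ABR at 259 and 3754 (27.0-fold) and for USP34, a ubiquitin protease, at 264 and 3235 (22.8-fold). No single gene carried the gain: TRIO, the largest, made up 0.398% of it.

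Genes with more intron gained more. When genes were ordered by the summed length of their introns and split into 10 equal groups, the scaled intron counts of the group with the shortest introns (up to 2.21 kb) were 2.17-fold higher with randomer at 16 h. The ratio was 3.32 in the fifth group and 6.29 in the group with the longest introns (from 157 kb). Genes with no overlapping gene in the annotation ran from 2.38 to 7.89. At 9 h the ratios ran from 1.84 to 4.73, while control oligo against mock lay between 0.861 and 0.942 in every group. The length relation was thus present in both randomer libraries and flat between the libraries without randomer.

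**Figure D2:**
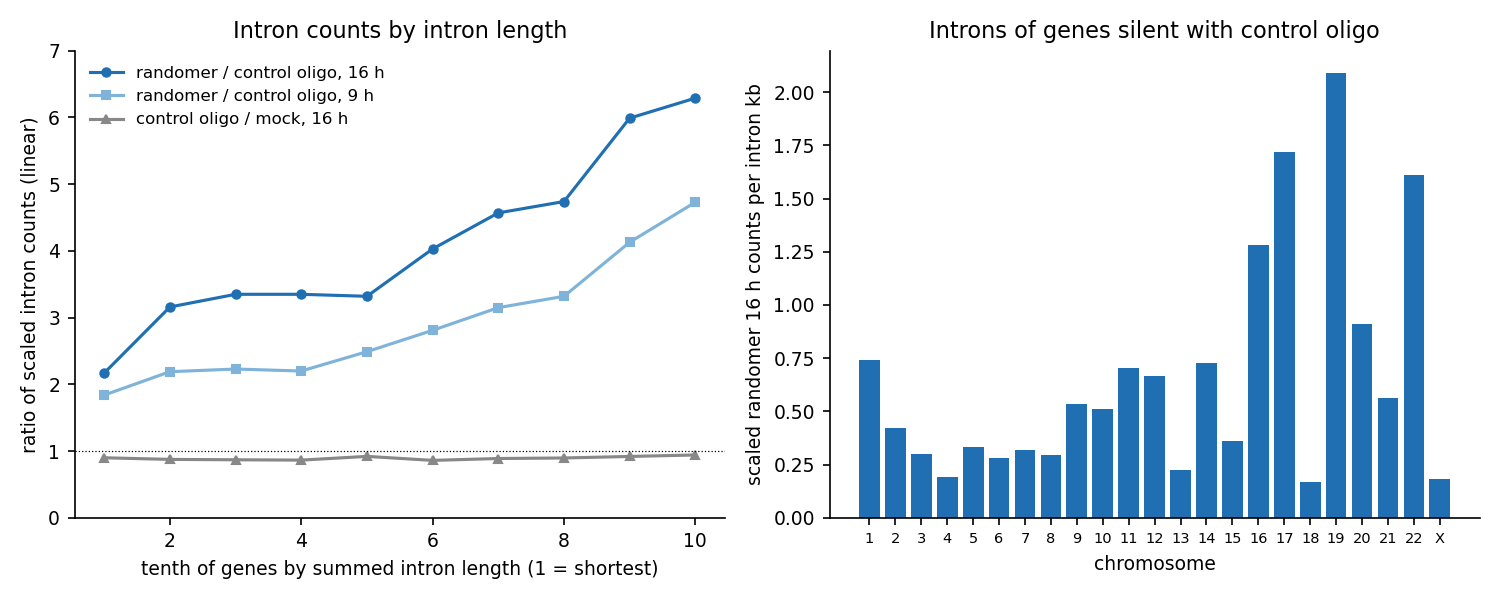
Left: ratio of summed, scaled intron counts in 10 equal groups of genes ordered by summed intron length, for randomer over control oligo at 16 h and 9 h and for control oligo over mock at 16 h. Right: scaled randomer 16 h counts per kb of intron, by chromosome, for genes with at most 2 counts in either table under control oligo at 16 h; the bars run from 0.168 on chromosome 18 to 2.09 on chromosome 19.

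Many introns read with randomer belonged to genes not read with control oligo. Of 17548 annotated genes found in both tables with at least 1 kb of intron, 6500 had at most 2 counts in each table with control oligo at 16 h. This choice fixes their control counts at 196 in all, so the gain itself is a description. These genes held 121546 intron counts with randomer at 16 h, which was 6.24% of that library's intron counts. In the libraries that the choice did not use they held 2041 intron counts in mock, 2291 with control oligo at 9 h and 82117 with randomer at 9 h. Fewer than 1 in 2 of them (47.4%) had any intron read with randomer at 16 h, and 8.92% had 50 or more.

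Introns of several genes known for tissues other than lung epithelium were read with randomer. NRXN2, a neuronal adhesion gene, showed 1565 intron counts under randomer at 16 h, 1374 under randomer at 9 h, 0 in each control oligo library and 17 in mock, which was at least 973-fold higher at 16 h against a floor of 3 counts. RBFOX3, the neuronal nuclear antigen, had 1473 with randomer at 16 h, 160 with randomer at 9 h, 12 with control oligo at 9 h, 0 with it at 16 h, and 1 in mock, while its exons had 0 counts in all 5 libraries. ITGAM, an integrin of myeloid cells, showed 948 intron reads under randomer at 16 h, 568 at 9 h, 0 with control oligo at either time and 1 in mock, and its exons had 18 counts with control oligo at 16 h and 101 with randomer. VWF, the von Willebrand factor of endothelium, had 401 and 348 intron counts with randomer and 0 in the 3 other libraries. Of other leukocyte and endothelial markers, with randomer at 16 h PTPRC had 18 intron counts, PECAM1 21, CDH5 1, and CD14, CD3E, LYZ and KDR 0. Among the other neuronal markers TUBB3, a beta tubulin, had 37 and 197 intron counts at 16 h, 26 and 132 at 9 h, and 21 in mock (9.82-fold higher), while its exons had 97 and 27 at 16 h, and SNAP25, SYT1 and MAP2 had 4 to 39 intron counts with randomer at 16 h.

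PTPRN2, a receptor-type phosphatase of neuroendocrine cells, had the highest intron ratio, with 1680 counts with randomer and 0 with control oligo at 16 h, 768 and 25 at 9 h, and 1 in mock (at least 1045-fold higher). PEBP4, CACNA1I, ITGA9, GSG1L, PDE2A and NCALD were at 0 with control oligo at 16 h and had 668 to 858 intron counts with randomer. In the exon table, DNAH17, a dynein heavy chain of cilia, had 269 counts with randomer and 0 with control oligo at 16 h, 217 and 7 at 9 h, and 0 in mock (at least 167-fold higher). PYGM, the muscle glycogen phosphorylase, had 155 and 0 at 16 h, 68 and 0 at 9 h, and 0 in mock. TNNI1, a troponin of slow muscle, had 113 and 0, 75 and 0, and 0. EPPK1, the plakin epiplakin, had 412 exon counts with randomer and 1 with control oligo at 16 h, 381 and 0 at 9 h, and 1 in mock, a ratio of 513 whose counting interval runs from 7.10 to 14.89 on the log2 scale. In each of these genes both randomer libraries were above the 3 others. LOC100507351, MMRN2, NRXN2, MAST1, COL5A3, CPT1C, LINC00176, CACNA1I and SEMA4A completed the 15 highest exon ratios with FOSB and SNORA62, and these 9 genes were at 0 with control oligo at 16 h and had 100 to 166 exon counts with randomer.

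Among the longest silent genes counts differed. RBFOX1, CNTNAP2, DMD and CSMD1, with 2041 to 2463 kb of introns, held 9, 10, 9 and 7 counts in their introns under randomer at 16 h. GPC5 with 1472 kb held 186, NRXN3 with 1682 kb 174, DAB1 with 1544 kb 106 and CTNNA3 with 1773 kb 70. Counts per kb of silent introns differed between chromosomes, at 2.09 on chromosome 19, 1.72 on chromosome 17, 1.61 on chromosome 22 and 1.28 on chromosome 16, against 0.168 on chromosome 18, 0.183 on the X chromosome and 0.193 on chromosome 4. Intron length moved with this order: silent genes had a mean of 19.6 kb of intron on chromosome 19 and 131 kb on chromosome 18. The share of silent genes with 50 or more counts differed less, at 11.3% on chromosome 19, 17.4% on chromosome 16, 7.78% on chromosome 18 and 2.75% on the X chromosome. The part of intron length in the chromosome values was not tested.

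Silent genes just downstream of a read gene on the same strand were read more. Where the nearest gene on the 5′ side lay within 50 kb, on the same strand, and had 50 or more exon counts with control oligo, 632 silent genes had 1.92 scaled randomer counts per kb of intron, and 25.2% of them had 50 or more counts. Where that neighbour had at most 2 counts, 1505 silent genes had 0.942 counts per kb, and 7.57% had 50 or more. A read 5′ neighbour on the other strand went with 0.706 counts per kb and 6.67% in 405 genes. The values were thus highest beside a read neighbour on the same strand.

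The same order held in silent genes with no overlapping gene. With a read 5′ neighbour on the same strand 239 of these genes had 3.26 counts per kb, and 23.0% had 50 or more. With an unread one 716 genes had 1.28 and 5.73%, and with a read neighbour on the other strand 185 genes had 1.21 and 5.95%. A read same-strand neighbour on the 3′ side went with 1.93 counts per kb and 11.2% in 224 genes, which lay between these values. Neighbours and strands come from an annotation of another build than the counts, the use of strand in counting is not stated, and neighbouring genes share their region, so these values describe the 2 libraries only.

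Genes with introns 2-fold or more lower were few, at 55 of 6385. The lowest of them are named because they stand against the general shift. NCL, the nucleolar protein nucleolin, whose introns hold several snoRNAs, had 4942 intron counts with control oligo and 672 with randomer at 16 h, 1361 and 1090 at 9 h, and 998 in mock. It was 3.94-fold lower at 16 h, but the control oligo library at 16 h stands far above the other control and the mock, and against mock the log2 ratio was -0.18. PDIA3, which forms disulfide bonds in the endoplasmic reticulum, had 343 and 51 intron counts at 16 h, 316 and 62 at 9 h, and 197 in mock, and was lower in both randomer libraries (3.58-fold at 16 h). SAMD11, ARRB2, SLC22A18 and APEX1 were 5.14-fold to 7.98-fold lower at 16 h and had log2 ratios of -0.75 to -1.79 at 9 h. COX10-AS1, MOB3B, NUF2 and SLC19A1 were 3.57-fold to 4.31-fold lower at 16 h and had log2 ratios above 0 at 9 h.

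METTL12 and SNORA57 had nearly matching counts, though METTL12 has only 0.003 kb of intron in the annotation. The introns of METTL12 had 8442 counts with control oligo and 5466 with randomer at 16 h, and SNORA57 had 8558 and 5705 exon counts in the same libraries. In mock they had 6582 and 6662. Whether reads were shared between them was not tested. METTL12 was among the 5 genes with the lowest intron ratio relative to exons. FOSB, DNAH17, MAST1 and ZNF780B were the other 4, each with an exon ratio above its intron ratio. ITGAM, DPP3, ZDHHC18, NFKBIB and PMAIP1 were the 5 highest, and each had 0 intron counts with control oligo at 16 h.

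The exon ratio depended on how abundant a gene was. Grouped by counts in the mock library, which was not used in the ratio, genes with 50 to below 100 exon counts had a median log2 ratio of 0.07, those from 100 to below 300 a median of -0.15, those from 300 to below 1000 a median of -0.39, and the 37 genes with 3000 or more a median of -0.79, over all genes with these mock counts whatever their mean over the 16 h pair. Of the 100 most abundant genes over the 2 libraries, 81 had ratios below 0, with a median of -0.60. The abundant mRNAs thus formed a smaller part of the randomer library. Intron ratios were also lower in more abundant genes, with a median of 1.78 from 50 to below 100 mock counts, 1.79 from 100 to below 300 and 1.07 from 300 to below 1000. Fewer cells and less RNA per cell cannot be told apart in such bulk libraries, and neither is seen in ratios scaled to library size.

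**Figure D3:**
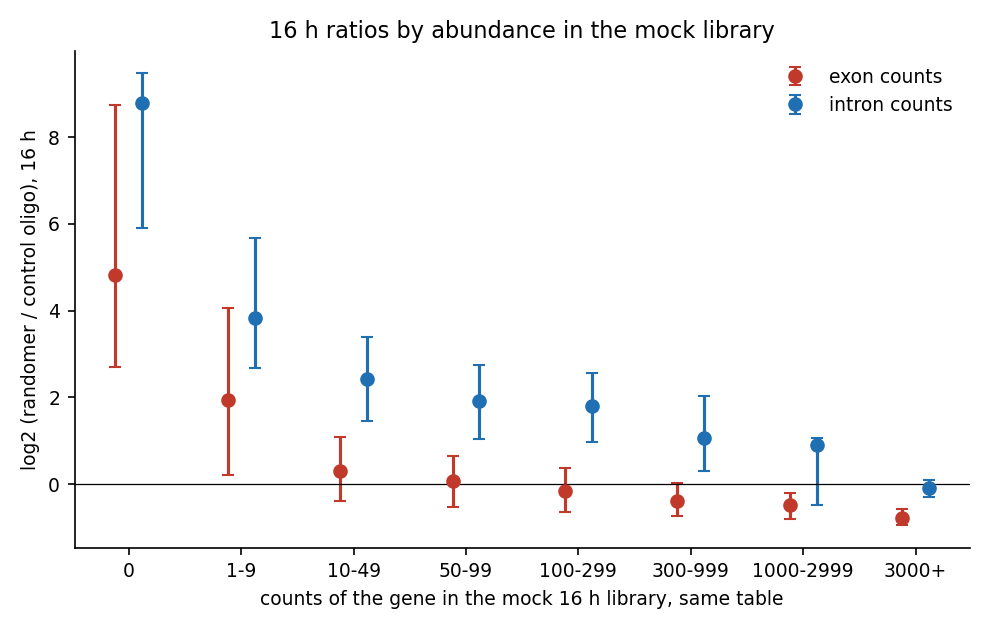
Median (points) and quartiles (bars) of the log2 ratio of randomer to control oligo at 16 h, for exon and intron counts, against each gene's counts in the mock library. Genes under 50 mock counts are plotted only where the 16 h pair brought their mean to 50, which raises those bins. From 50 mock counts on, the exon median passes from 0.07 to -0.79.

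RN45S, the precursor of ribosomal RNA, had 188053 exon counts with control oligo and 242318 with randomer at 16 h, or 7.24% and 16.4% of the exon counts. It had 178228 and 140513 at 9 h and 225899 in mock, where it made up 11.5%. It was 2.40-fold higher with randomer at 16 h, while its log2 ratio was 0.14 at 9 h, so the randomer libraries did not stand apart from the rest. Whether these RN45S reads came from the precursor or from ribosomal RNA left after depletion was not tested. ACTG1, the cytoplasmic gamma actin, had 75104 and 26948 at 16 h (1.49-fold lower) and 94601 and 45053 at 9 h. HSP90AA1 (1.81-fold), NCL (2.50-fold), ATP5B (2.11-fold) and HSPA8 (1.73-fold) were also lower at 16 h, whereas MALAT1, a nuclear noncoding RNA, was 1.05-fold lower and RPPH1, the RNA of RNase P, 1.15-fold higher.

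Among genes with the lowest exon ratios, SKA1, a kinetochore gene, had 111 counts with control oligo and 0 with randomer at 16 h, 53 and 20 at 9 h, and 30 in mock, at least 19.8-fold lower. ACADSB, an acyl-CoA dehydrogenase of mitochondria, had 144 and 2 at 16 h, 98 and 35 at 9 h, and 27 in mock, a 31.0-fold lower ratio with a log2 interval of -8.33 to -3.39. For both genes the control oligo library at 16 h was the highest of the 5, and mock lay below the control oligo at 9 h. CHCHD1 had 116 and 4 at 16 h, 134 and 45 at 9 h, and 57 in mock (13.9-fold lower). POR, the cytochrome P450 reductase, had 199 and 10 at 16 h, 106 and 114 at 9 h, and 114 in mock (10.2-fold lower). The rest of the 15 lowest, ALDH5A1, CEP70, EFNA5, TUBGCP4, KLHDC10, FAM127A, ERP29, POLR2C, ACAT1, SCPEP1 and ADAT2, were 6.66-fold to 13.8-fold lower at 16 h. Their log2 ratios at 9 h ran from -1.08 to 1.25, so the large reductions of these genes were not shared in full by the earlier pair.

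The 9 h pair gives the same measurement in libraries that the 16 h choice did not use. Over 6155 exon genes described at both times the Pearson correlation of the log2 ratios was 0.61 and the Spearman correlation 0.48. Over 5437 intron genes they were 0.82 and 0.73, across genes that are not independent. Of 709 exon genes 2-fold or more higher at 16 h, 291 (41.0%) were also higher at 9 h, and of 675 lower genes 114 (16.9%) were also lower. Of all 6155 genes 8.72% were higher and 7.02% lower at 9 h. By intron counts 3615 of 4349 higher genes (83.1%) were higher at both times, where 72.4% of all 5437 genes were higher at 9 h. In 23 exon genes and 8 intron genes the ratios were 2-fold or more in opposite directions.

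Small RNAs were a class with high ratios over exons. SNORA62 had 23 counts with control oligo and 3202 with randomer at 16 h, 13 and 1202 at 9 h, and 17 in mock. It was 254-fold higher at 16 h (log2 7.99, interval 7.43 to 8.68), and both randomer libraries were above the 3 others. SNORA67 had 15 and 603 at 16 h, 20 and 1290 at 9 h, and 25 in mock (72.6-fold). SNORD22 had 15 and 607, 15 and 722, and 15 (73.1-fold). SNORD93 had 3 and 115, 3 and 202, and 2, a ratio of 61.6 with a log2 interval of 4.58 to 8.46. These 4 snoRNAs had 2 to 25 counts in the libraries without randomer. SNORA76 (72.3-fold), SNORD12C (40.9-fold), SNORD83B (33.7-fold), SNORD60 (30.9-fold), SNORD33 (30.3-fold) and SNORA74A (21.0-fold) were also over 20-fold higher.

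Other snoRNAs were abundant in every library and differed less. SNORA57 had 8558 and 5705 counts at 16 h, 9353 and 6369 at 9 h, and 6662 in mock, 1.24-fold higher with randomer at 16 h once scaled. SNORD17 had 6963 and 5882 (1.58-fold), SNORD10 3938 and 3501 (1.66-fold) and SCARNA10, a guide RNA of Cajal bodies, 2975 and 1732 (1.09-fold). SNORD36C with 833 and 218 counts (2.04-fold lower) and SNORD79 with 1352 and 380 (1.91-fold lower) went the other way. Of the 21 H/ACA snoRNAs described 13 were 2-fold or more higher and 0 lower, with a median log2 ratio of 1.39. Of the 41 C/D box snoRNAs 26 were higher and 1 lower, with a median of 1.41, beside -0.11 for all exon genes, of which 12.1% were higher. Of these, 7 H/ACA and 14 C/D box snoRNAs had under 50 counts with control oligo, passed only through the randomer library and so had to be higher. The other 27 C/D box snoRNAs had a median of 0.79 with 12 higher, and the other 22 H/ACA snoRNAs and scaRNAs a median of 0.67 with 10 higher. Since snoRNAs are cut out of introns, the intron values are a further background, with a median of 2.19 and 80.3% higher. The snoRNA medians lay below that intron median. Whether reads of unspliced host transcripts were counted as snoRNA reads was not tested.

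Most snoRNAs with a single host described in the exon table had a higher ratio than that host's exons. This held for 20 of 23 C/D box snoRNAs, 7 of 8 H/ACA snoRNAs and 6 of 6 scaRNAs. Some of the snoRNAs, SNORA62 and SNORD22 among them, had under 50 counts with control oligo. Those passed only through the randomer library and had to be higher, and the shares without them were not counted. SNORA47 had 1283 and 1380 counts at 16 h, and the introns of its host ZBED3 had 1259 and 1346. Whether reads of snoRNAs were also counted in host introns was not tested. Against host introns the order was mixed. The 6 scaRNAs were all below their host's introns (SCARNA7 log2 1.11 beside 2.46), as was SNORA64 (2.51 beside 2.94), while SNORA62 and SNORD22 were above. RPSA, the ribosomal protein gene around SNORA62, had 1641 exon counts with control oligo and 457 with randomer (log2 -0.94) and 216 and 125 intron counts (log2 0.11). SNHG1, the noncoding host of SNORD22, had 166 and 221 exon counts (log2 1.31) and 639 and 2780 intron counts (log2 3.02). The same host held SNORD25 with 143 and 62 counts (1.23-fold lower) beside SNORD26 with 371 and 664 (3.34-fold higher), so snoRNAs of 1 host differed.

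RNU11 and RNU12, RNAs of the minor spliceosome, which removes a rare class of introns, were higher. RNU11 had 7 counts with control oligo and 659 with randomer at 16 h, 0 and 484 at 9 h, and 7 in mock (164-fold). RNU12 had 278 and 2827 at 16 h, 183 and 2054 at 9 h, and 182 in mock (18.9-fold). VTRNA1-3, a vault RNA, had 22 and 192 at 16 h (16.0-fold), 45 and 234 at 9 h, and 15 in mock. RMRP, the RNA of RNase MRP, differed less, at 4763 and 4306 (1.69-fold). Both randomer libraries were above the 3 others for the first 3 of these RNAs. RNU11 and VTRNA1-3 had under 50 counts with control oligo, passed only through the randomer library and had to be higher.

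**Figure D4:**
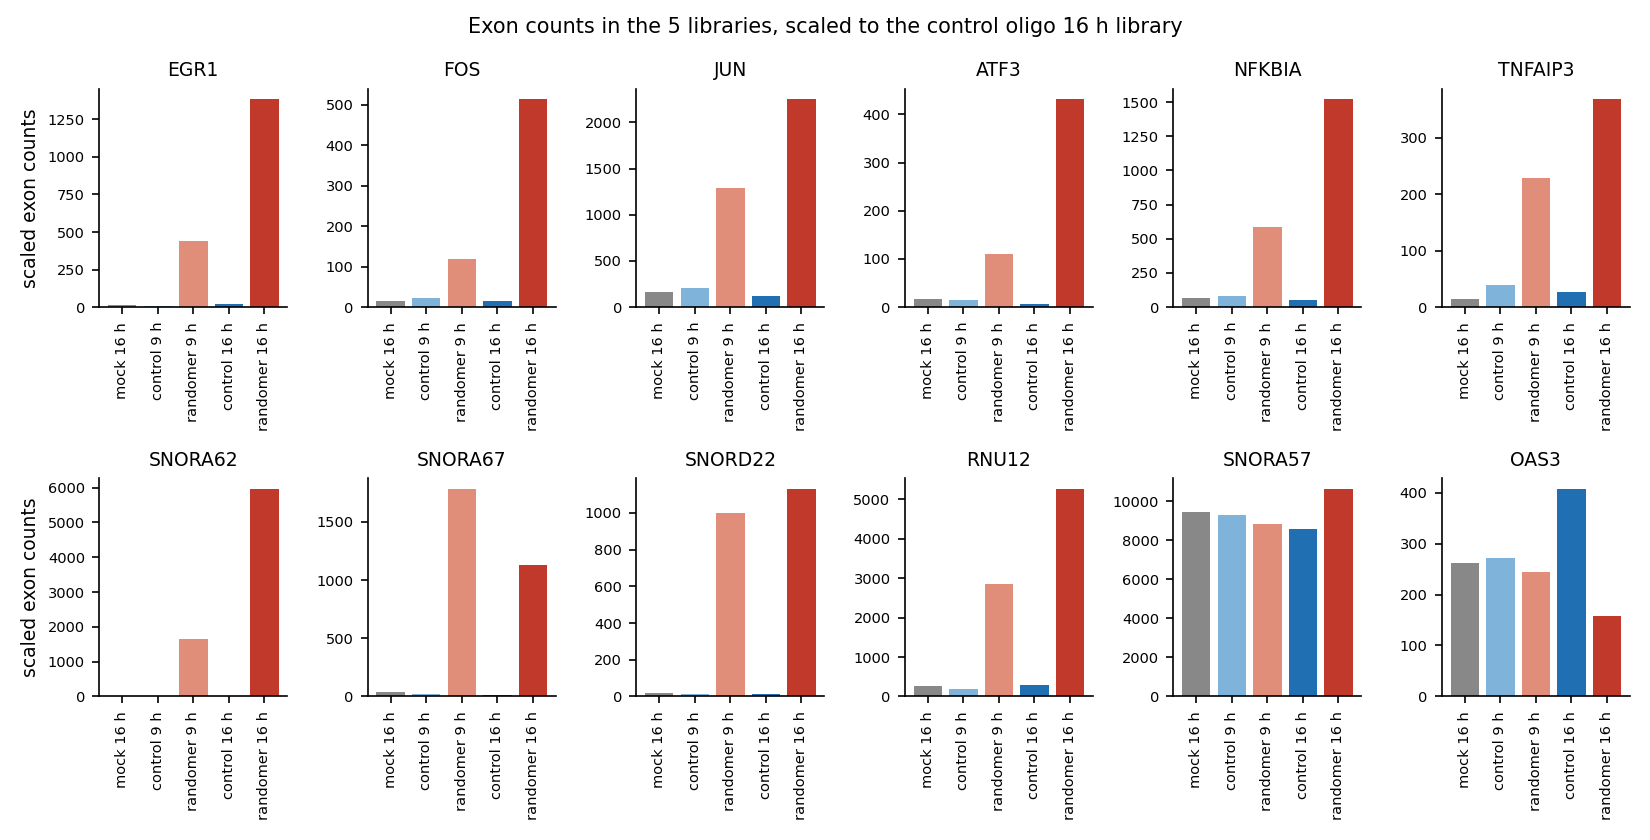
Exon counts of 12 genes in each of the 5 libraries, scaled to the size of the control oligo 16 h library, with each axis starting at 0. In the early response genes, NF-kB genes, SNORA62, SNORA67, SNORD22 and RNU12 both randomer bars stand above the other 3, while SNORA57 is near level and OAS3 is highest with control oligo at 16 h.

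Immediate early genes encode transcription factors that are induced within minutes of growth factor or stress signals without new protein synthesis. EGR1, a zinc finger factor, had 18 exon counts with control oligo and 741 with randomer at 16 h, 11 and 317 at 9 h, and 11 in mock. It was 74.8-fold higher at 16 h (log2 6.22, interval 5.59 to 7.03). FOS, a subunit of AP-1, had 14 and 275 at 16 h, 24 and 86 at 9 h, and 10 in mock (35.4-fold). ATF3, a stress-induced factor, had 7 and 231, 16 and 80, and 12 (57.6-fold). In each of these genes both randomer libraries were above all 3 others, and the later was the higher. FOSB had 154 counts with randomer and 0 with control oligo at 16 h, 45 and 0 at 9 h, and 6 in mock (at least 95.8-fold), and JUN had 1206 and 119, 932 and 209, and 119 in mock (log2 4.24). Of 26 listed genes 16 were described, 13 were 2-fold or more higher and 0 lower, and the median was 2.82, where 12.1% of all exon genes were higher. Of the 16, 5 had under 50 counts with control oligo, and the other 11 had a median of 1.70 with 8 higher. The introns of the list had a median of 4.47, with 13 of 13 higher, beside 2.19 and 80.3% for all intron genes. Of the 13, 8 had under 50 intron counts with control oligo, passed only through the randomer library and had to be higher. The other 5 had a median of 3.54. Against mock the intron median of the list was 3.59.

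NF-kB is a transcription factor held in the cytoplasm by inhibitors that are themselves its targets. NFKBIA, the main inhibitor, had 54 exon counts with control oligo and 815 with randomer at 16 h, 80 and 424 at 9 h, and 47 in mock (27.9-fold, log2 interval 4.42 to 5.24). IL8, the neutrophil chemokine also named CXCL8, had 21 and 199 at 16 h, 0 and 118 at 9 h, and 3 in mock (17.3-fold). Both randomer libraries exceeded the 3 others for both genes. BIRC3, an inhibitor of apoptosis, had 77 and 221 (5.33-fold), and TNFAIP3, a ubiquitin-editing brake on NF-kB, had 26 and 197 (log2 3.80). Of 26 listed genes 12 were described over exons, with 9 higher, 0 lower and a median of 2.06, where 12.1% of all exon genes were higher. Of the 12, 5 had under 50 counts with control oligo, and the other 7 had a median of 1.04 with 4 higher. Against mock the median of the 12 was 1.24. TNF, IL1A, IL1B and IL6 had 0 exon counts in all 5 libraries, so these 4 cytokines were not detected at this depth.

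The promoters of EGR1 and NFKBIA are shown because these genes were among the highest of their lists and carry sites of factors known to induce them. In 250 bases before the RefSeq start (GRCh38.p14), capitals mark CArG boxes, bound by serum response factor, in EGR1 (chromosome 5, plus strand) and the kappa B site in NFKBIA (chromosome 14, minus strand).
EGR1: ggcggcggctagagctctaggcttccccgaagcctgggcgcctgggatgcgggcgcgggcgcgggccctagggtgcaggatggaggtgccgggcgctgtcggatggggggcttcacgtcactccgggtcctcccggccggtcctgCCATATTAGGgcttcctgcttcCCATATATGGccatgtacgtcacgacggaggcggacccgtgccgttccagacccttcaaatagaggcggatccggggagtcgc
NFKBIA: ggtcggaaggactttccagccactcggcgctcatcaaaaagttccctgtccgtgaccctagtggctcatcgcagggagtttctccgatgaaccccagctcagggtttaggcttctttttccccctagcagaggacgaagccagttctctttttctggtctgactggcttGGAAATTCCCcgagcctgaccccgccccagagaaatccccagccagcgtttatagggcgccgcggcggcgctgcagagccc
The search on both strands found 2 CArG boxes in EGR1 and 1 kappa B site in NFKBIA, which do not overlap. Such a CArG box is in 248 of 22114 promoter windows (1.12%) and in 1 of the 14 listed immediate early genes with a window. A kappa B site is in 2048 windows (9.26%) and in 9 of 14 listed NF-kB and inflammatory genes, among them IL6, CXCL1 and CCL20, which were at 0 or near it. These are matches of letters, and binding was not measured.

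MAPK feedback genes encode the phosphatases and inhibitors that dampen the kinases upstream of immediate early genes. Of 10 described over exons, 7 were 2-fold or more higher and 0 lower, with a median of 1.14, where 12.1% of all exon genes were higher and 11.3% lower. DUSP14, a dual-specificity phosphatase, had 58 and 70 exon counts at 16 h (2.25-fold higher) and 4 and 490 intron counts (203-fold higher), with 38 and 238 intron counts at 9 h and 17 in mock. DUSP8 had 11 and 444 intron counts at 16 h (72.1-fold) and 10 and 307 at 9 h, and 4 and 14 exon counts at 16 h and 0 and 34 at 9 h, which is below the mean set for description. The 203-fold ratio of DUSP14 rests on a control value below those of mock and of control oligo at 9 h. Over introns 9 of 9 described members were higher, where 80.3% of all intron genes were. Of the 9, 4 had under 50 intron counts with control oligo, DUSP14 and DUSP8 among them. Those 4 passed only through the randomer library and had to be higher. The other 5 were also 2-fold or more higher.

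Targets of p53, the DNA damage factor that A549 cells carry unmutated, were higher in part. Of 21 described, 10 were 2-fold or more higher and 1 lower, with a median exon log2 ratio of 0.85, where 12.1% of all exon genes were higher. Of the 21, 1 (BBC3) had under 50 counts with control oligo, passed only through the randomer library and had to be higher. The other 20 had a median of 0.79, with 9 higher. BBC3, which encodes the cell death protein PUMA, had 26 and 129 exon counts at 16 h, 25 and 74 at 9 h, and 14 in mock (9.12-fold). PLK2, a stress-induced kinase, had 336 and 757 at 16 h, 323 and 399 at 9 h, and 143 in mock (log2 2.07). MDM2, the ligase that degrades p53, had 1714 and 2298 (log2 1.32), CDKN1A, the cell cycle inhibitor p21, 740 and 589 (log2 0.57), and SESN1 189 and 50 (log2 -1.01). Over introns 16 of 17 were higher, with a median of 3.62, beside 80.3% and 2.19 for all intron genes, and 9 of the 17 had under 50 intron counts with control oligo.

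The integrated stress response, in which phosphorylated eIF2 favours translation of ATF4, was mixed. DDIT3, the factor CHOP, had 33 exon counts with control oligo and 226 with randomer at 16 h, 72 and 116 at 9 h, and 68 in mock (12.6-fold). PPP1R15A, the phosphatase subunit GADD34, had 171 and 854 at 16 h, 240 and 670 at 9 h, and 130 in mock (9.29-fold), and SESN2 had 23 and 164 at 16 h (13.1-fold). SLC3A2, an amino acid transporter subunit, was 2.20-fold higher. Over the list 6 of 20 genes were higher and 3 lower, where 12.1% and 11.3% of all exon genes were, and the median was 0.01, so the named members do not stand for the list. Of the 20, 2 (DDIT3 and SESN2) had under 50 counts with control oligo, passed only through the randomer library and had to be higher. The other 18 had a median of -0.04, with 4 higher and 3 lower.

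Interferon genes were silent. All 6 listed interferon genes had 0 exon counts in both 16 h libraries, IFNB1 among them in all 5. Of the listed interferon-stimulated genes 6 of 33 were described, 1 higher and 3 lower, where 12.1% and 11.3% of all exon genes were. The higher one passed only through the randomer library, and of the other 5 there were 0 higher. IRF1, a factor that NF-kB also induces, had 19 and 203 exon counts at 16 h, 6 and 65 at 9 h, and 17 in mock (19.5-fold). USP18 had 88 and 13 (log2 -1.81) and HERC5 146 and 32 (log2 -1.27). Below the mean set for description, ISG20 had 13 and 45 exon counts at 16 h (6.29-fold higher) but 39 and 3 at 9 h. DDX58 had 17 and 38 at 16 h (4.1-fold higher) and 8 and 22 at 9 h. Over introns 4 of 4 described members were higher, where 80.3% of all intron genes were. All 4 had under 50 intron counts with control oligo, passed only through the randomer library and had to be higher. IFIT1 had 5 and 10 counts at 16 h, 0 and 0 at 9 h, and 10 in mock, a difference that depth does not resolve from mock. MX1, IFI27, RSAD2 and BST2 had 0 exon counts in every library, which at this depth allows up to 3 counts each.

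Of 11 described genes of double-stranded RNA sensing 1 was 2-fold or more higher over exons and 2 lower, with a median of -0.13, and these counts are near the shares of all exon genes (12.1% and 11.3%). TARBP2, which binds double-stranded RNA as a partner of Dicer, was the higher one, with 139 and 159 counts at 16 h, 105 and 123 at 9 h, and 59 in mock (2.13-fold higher, log2 interval 0.76 to 1.43). OAS3 had 408 exon counts with control oligo and 85 with randomer at 16 h, 274 and 177 at 9 h, and 184 in mock, which is 2.56-fold lower (log2 interval -1.72 to -1.02). The control oligo library at 16 h was the highest, and against mock the log2 ratio was -0.72. OAS1 had 32 and 7 counts at 16 h and 2 in mock, and OAS2 had 0 and 10. EIF2AK2, the kinase PKR, had 203 and 98 (1.11-fold lower), and ADAR, which edits double-stranded RNA, was 1.16-fold lower from 1188 counts with control oligo. Over introns 9 of 9 described genes of this list were 2-fold or more higher, with a median of 1.87, where 80.3% of all intron genes were higher with a median of 2.19.

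Targets of NRF2, the antioxidant factor that is active in A549 cells through a KEAP1 mutation, had 9 of 18 exon genes 2-fold or more lower and 0 higher, with a median of -0.98, where 11.3% of all exon genes were lower. The list held 31360 exon counts with control oligo at 16 h, and exon ratios were lower in abundant genes, as given above. The part of abundance in the values of this list was not tested. AKR1C2, an aldo-keto reductase, had 936 and 198 exon counts at 16 h, 634 and 171 at 9 h, and 406 in mock (2.53-fold lower), and 329 and 61 intron counts (2.87-fold lower). FTL, the ferritin light chain, had 7186 and 1785 exon counts at 16 h (2.16-fold lower), 5565 and 2210 at 9 h, and 4173 in mock. The introns of the list had a median of 0.34 with 3 of 19 higher, against 2.19 and 80.3% for all intron genes. With the intron table's own TMM factors that median was -1.52, beside 0.33 for all. ALDH1A1, a detoxifying dehydrogenase abundant in these cells, was 1.94-fold lower over exons and 1.96-fold lower over introns, at 1398 and 382 intron counts.

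Endoplasmic reticulum chaperones had 6 of 18 exon genes lower and 0 higher, with a median of -0.79, where 11.3% of all exon genes were lower. Over introns 10 of 15 were higher, a smaller share than the 80.3% of all intron genes, with a median of 1.46, which was -0.40 with the intron table's own TMM factors. CALR, a calcium-binding chaperone, had 2726 and 596 exon counts at 16 h (2.45-fold lower), 3178 and 1270 at 9 h, and 1999 in mock, and its introns were 4.72-fold higher. Median exon log2 ratios were -0.75 for glycolysis enzymes, -0.65 for nuclear-encoded oxidative phosphorylation subunits, -0.61 for cytosolic ribosomal proteins, -0.62 for translocon and coat genes, -0.60 for heat shock genes and -0.45 for proteasome subunits. Of the 174 described members of these 6 lists 2, both ribosomal protein genes, were 2-fold or more higher (1.15%, where 12.1% of all exon genes were) and 41 lower (23.6%, where 11.3% were). These lists are made of abundant mRNAs, as is that of the chaperones, and abundance moved with the ratio as given above. The part of abundance in the list values was not tested. HK1, the first enzyme of glycolysis, shows the gap between the tables with 287 and 110 exon counts (1.39-fold lower) and 21 and 742 intron counts (64.4-fold higher).

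Of 31 chromatin modifiers with long transcripts 14 were 2-fold or more higher over exons and 0 lower, with a median of 0.92, where 12.1% of all exon genes were higher. Of the 31, 2 had under 50 exon counts with control oligo, passed only through the randomer library and had to be higher. The other 29 had a median of 0.76 with 12 higher. Over introns 29 of 31 were higher, where 80.3% of all intron genes were. Of these 31, 3 had under 50 intron counts with control oligo, and 26 of the other 28 were higher. The 7 subunits of RNA polymerase II described had an exon median of -0.03, with 2 higher and 1 lower. KDM6B, a histone demethylase induced by inflammatory signals, had 48 and 390 exon counts at 16 h, 62 and 280 at 9 h, and 78 in mock (log2 3.91). CHD2, named above for its introns, had 245 and 1025 exon counts (7.79-fold). PCF11, a factor that ends transcription at poly(A) sites, had 110 and 596 at 16 h, 149 and 431 at 9 h, and 98 in mock (10.1-fold). Its list of cleavage and termination genes had 4 of 23 higher, where 12.1% of all exon genes were, and a median of 0.33. Of the 23, 1 had under 50 counts with control oligo, and the other 22 had a median of 0.25 with 3 higher. KCNQ1OT1, a nuclear noncoding RNA, had 90 and 637 at 16 h (13.1-fold), and MIR22HG, the host of a microRNA, 60 and 283 (8.74-fold). CLK1, a kinase of splicing factors, had 201 and 432, while the SR protein and CLK list had a median of 0.11 and hnRNP genes -0.28.

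**Figure D5:**
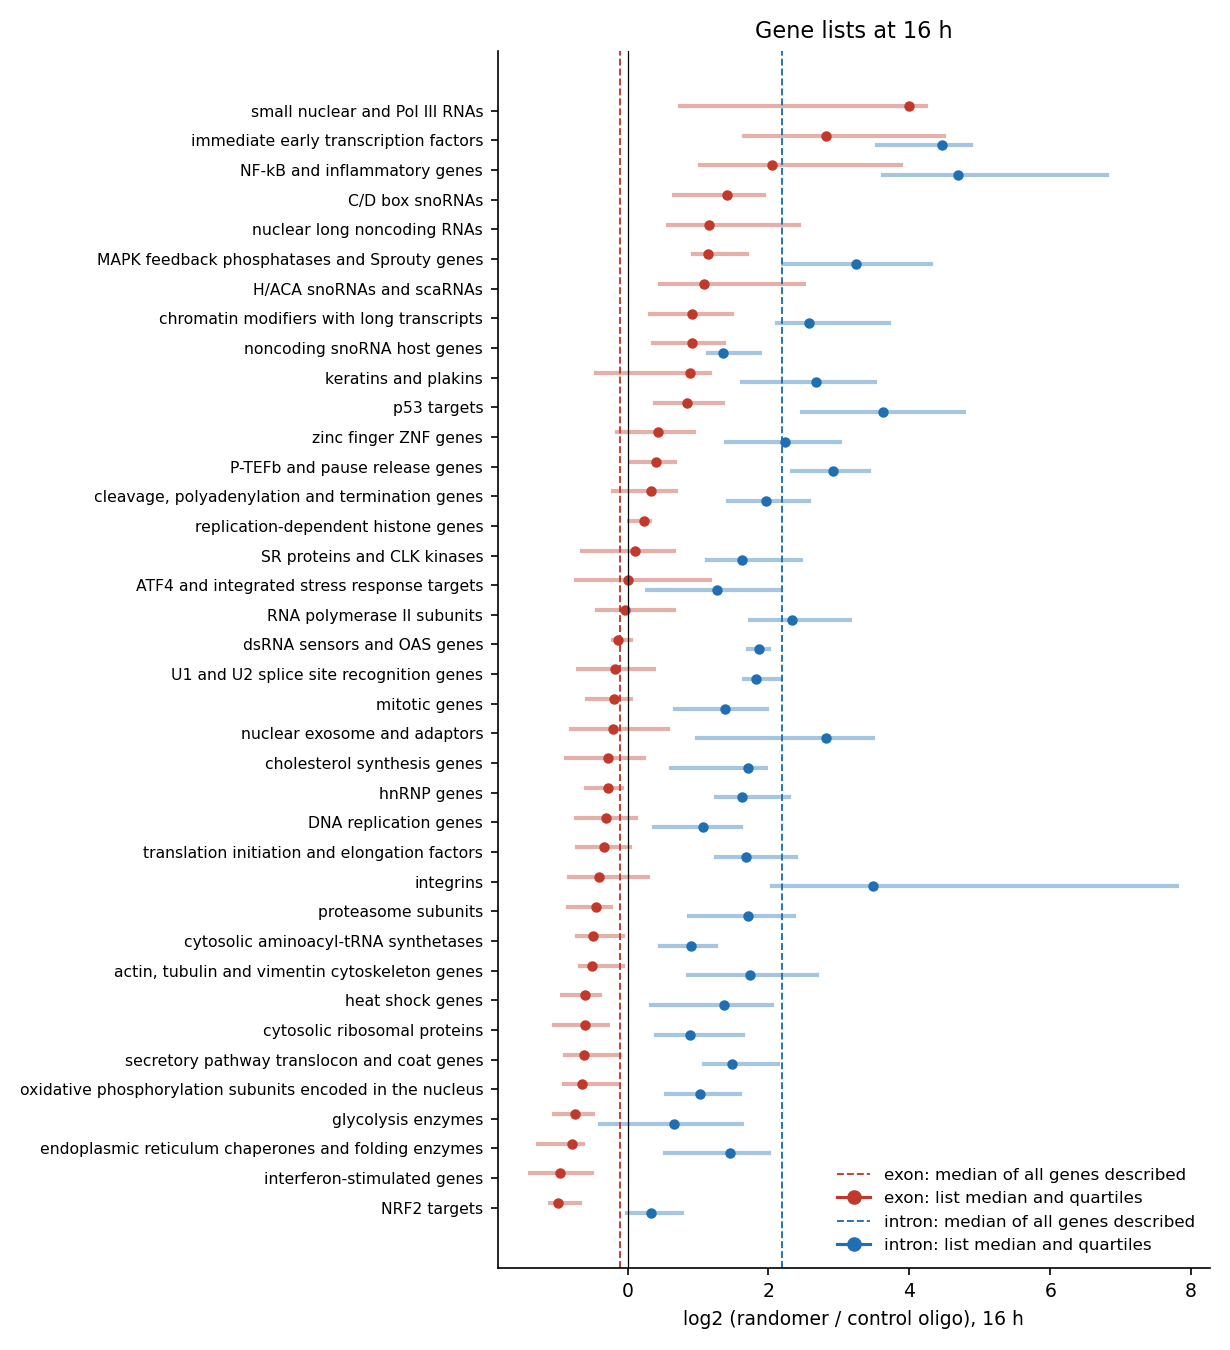
Median (points) and quartiles (bars) of the log2 ratio of randomer to control oligo at 16 h over the described members of each list, for exon and intron counts, with dashed lines at the medians of all described genes (-0.11 and 2.19). Immediate early and NF-kB genes lie to the right in both tables, and NRF2 targets to the left in both.

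Exon medians of the remaining lists, beside -0.11 for all genes, were -0.19 for mitotic genes, -0.30 for DNA replication genes, -0.28 for cholesterol synthesis genes, -0.33 for translation factors, -0.50 for aminoacyl-tRNA synthetases, -0.18 for splice site recognition genes, -0.21 for the nuclear exosome and its adaptors and -0.51 for cytoskeleton genes. They were 0.41 for pause release genes, 0.43 for ZNF genes, 0.23 for replication-dependent histones, 0.91 for noncoding snoRNA hosts and 0.89 for keratins and plakins. Within these lists single members stood out, such as HIST1H1E, a linker histone with 201 and 483 exon counts (4.48-fold higher), ZCCHC8, an exosome adaptor with 101 and 247 (4.55-fold higher), and ZNF780B with 3 and 168, a ratio of 89.8 with a log2 interval of 5.13 to 9.00. By annotated type, the 8 processed pseudogenes described over exons had a median of -1.01, and antisense genes and lincRNAs had median intron ratios of 3.33 and 3.38 over 40 and 50 genes.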

How the data were processed

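The deposited tables hold raw read counts per gene, 1 table over exons and 1 over introns, for 5 libraries of rRNA-depleted total RNA. The submitters' processing notes name TopHat2, HTSeq and hg19; their versions, their roles and any use of strand in counting are not stated there, so overlapping genes, antisense genes and near-identical copies can share reads. The 28 entries of each table whose gene name had become a date were dropped (0.153% to 0.267% of the 16 h counts).

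Both tables were scaled by the exon table's library size with TMM factors (edgeR 4.0.16, R 4.3.3) from genes with 10 or more counts in 2 or more libraries. Log2 ratios add 0.5 to each count, which understates the ratios of low genes. Folds of single genes are the same ratios on the linear scale, so they also hold the added 0.5. Against 0 they use a floor of 3 counts per library and are given as "at least". Intervals (scipy 1.17.1, Python 3.11.15) are exact 95% Clopper-Pearson, from counts without the added 0.5. Exon totals of 1476223 to 2629053 set the precision. With 1 library a group no test was made. Ratio calculations were checked on simulated counts.

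Exon and intron tables were joined by symbol (18447 genes) and RefSeq synonyms (756). Gene types, intron lengths, hosts, overlaps and neighbours come from GENCODE version 29 on GRCh38, which is not the build of the counts, so no coordinates are given. Promoter windows are RefSeq's on GRCh38.p14.

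Named genes are the 15 highest and 15 lowest exon ratios, the 10 highest and 10 lowest intron ratios, the 5 highest and lowest intron-to-exon ratios, the 10 genes with most exon counts and the 10 largest intron gains, the 8 strongest opposite genes, and up to 4 members of each list. IFNB1, OAS1, OAS2, OAS3, EIF2AK2, ADAR, IFIT1, IL8 and RN45S are also named. Some genes that this rule takes are not reported here. Other genes were named after their values were seen. The genes described and the lists were chosen with earlier results of these data known. Alternatives tried were other scalings, including DESeq2 1.42.0 size factors, other count minimums, 5 in place of 0.5, mock as reference, genes with no overlap, and other ways to choose genes.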

Additional observations from a re-analysis of the deposited data

Results flagged for a closer look

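DARS, the cytosolic aspartyl-tRNA synthetase, had exon ratios of opposite direction at the 2 times. It had 102 exon counts with control oligo and 19 with randomer at 16 h, a log2 ratio of -1.49, but 51 and 129 at 9 h, a log2 ratio of 1.81. The mock library had 67. Its introns were higher with randomer at both times, with 79 and 194 counts at 16 h and 69 and 271 at 9 h. The difference between the times was not tested, since each value rests on 1 library a side.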

How the results depend on the processing

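The largest dependence is on how introns are scaled: with the intron table's own TMM factors in place of the exon library size, the median intron log2 ratio was 0.33 instead of 2.19, with 2126 genes higher and 1087 lower instead of 5126 and 55. Under that scaling the median intron ratio took the other sign in 19 of 33 lists: NRF2 targets -1.52, glycolysis -1.20, cytosolic ribosomal proteins -0.99, aminoacyl-tRNA synthetases -0.96, ATF4 targets -0.59, chaperones of the endoplasmic reticulum -0.40, heat shock genes -0.49, proteasome -0.16, translocon and coat genes -0.38, cholesterol synthesis -0.16, oxidative phosphorylation -0.83, translation factors -0.19, mitotic genes -0.49, DNA replication -0.79, SR proteins and CLK kinases -0.24, hnRNP genes -0.24, splice site recognition -0.03, noncoding snoRNA hosts -0.50 and cytoskeleton genes -0.12. That scaling removes a shift common to most introns by its construction. With mock as reference 6 list medians moved: immediate early introns to 3.59, NF-kB exons to 1.24, introns of chaperones to 0.68, of cholesterol synthesis to 1.12 and of the nuclear exosome to 1.84, while that of mitotic gene introns was higher than its 1.38. Other settings left the exon median between -0.28 and -0.02 and the intron median between 1.75 and 2.58. The settings that follow change how many genes are described, and their counts past 2-fold moved with that. With a mean of 20 or more, 1649 exon genes were higher and 1201 lower, 194 intron genes were lower, and the intron-to-exon ratio was higher in 5358 and lower in 162. With a mean of 200 or more, exon genes were 149 and 205, intron genes 1603 and 5, and intron-to-exon ratios 684 and 1. Genes with no overlapping gene gave 246 and 250, 1265 and 16, and 877 and 7. Genes with 50 or more counts in mock, a choice added after seeing the data like those of the 9 h pair and without genes at 0, gave 2695 genes with higher introns, and intron-to-exon ratios higher in 2111 and lower in 17. The intron share differed by 33.9 percentage points between randomer and control oligo, by 33.3 against mock, by 35.5 without overlapping genes and by 36.9 without RN45S. Of 96 values of 10 summaries 23 moved. Most of these summaries are counts of genes, which cannot change sign. The exon, intron and intron-to-exon medians and the difference in intron share kept their sign under the settings tried. No paired analysis was possible because each group is 1 library and no test was made. Depth limits genes under 50 counts, for which ratios carry wide counting intervals.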

Other observations

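Integrins are receptors for extracellular matrix. Of 10 described over exons 1 was 2-fold or more higher and 2 lower, with a median log2 ratio of -0.40, and these counts are near the shares of all exon genes (12.1% and 11.3%). Over introns 14 of 14 described were higher, with a median of 3.49, where 80.3% of all intron genes were higher. Of the 14, 7 had under 50 intron counts with control oligo, passed only through the randomer library and had to be higher. The other 7 had a median of 2.03, beside 2.19 for all intron genes.

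Among genes with at most 2 counts in either table under control oligo at 16 h, some with short introns were densely read with randomer. EFEMP2, an extracellular matrix gene, had 258 counts over 1.75 kb of intron with randomer at 16 h and 173 at 9 h, and 0 in the 3 other libraries, though an overlapping gene is annotated there. ASGR1, the asialoglycoprotein receptor of hepatocytes, had 112 counts over 2.39 kb at 16 h and 32 at 9 h, with 3 under control oligo at 9 h, and no gene overlaps it. TNNT2, cardiac troponin T, had 455 and 431 counts over 11.5 kb and overlaps another gene.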
